A study of Mus musculus with 8 samples.

Results

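The genes described here are the mouse Fc gamma receptors Fcgr1, Fcgr2b, Fcgr3 and Fcgr4, the signalling adaptors Fcer1g and Tyrobp, and the kinase Syk. They were chosen by name, with earlier results of these data known. All probe sets annotated to these 7 symbols were taken, among the 18193 genes with a probe set of their own. They had 15 probe sets, of which 14 lay above the floor used for testing, and all 7 genes were tested. The data come from 8 Affymetrix arrays of 1 colour, in 4 groups of 2. The groups were RAW cells in co-culture with CT26 cells, RAW cells alone, CT26 cells in co-culture with RAW cells, and CT26 cells alone. RAW is an established mouse macrophage line and CT26 an established epithelial line from a mouse colon tumour, and no genetic change or added agent is stated for any group. In co-culture the lines shared medium across a porous insert (10000 cells of each seeded, joined after 8 hours), without touching. The experiment was done on 2 occasions, called experiments 1 and 2 below. In the fit without a term for the experiment, a p-value sets a difference against the spread between samples of the 2 experiments. In the fits with such a term (a block), it sets the difference against the spread left after a shift between experiments is removed. Whether each experiment used separate cultures of a line is not given. Harvest differed by line, with trypsin for CT26 and direct lysis for RAW, so line and harvest cannot be told apart.

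Fc gamma receptors bind the constant part of immunoglobulin G and let macrophages take up coated particles and release mediators. The activating receptors Fcgr1, Fcgr3 and Fcgr4 reach the membrane with a dimer of the Fcer1g chain, whose tyrosine motif is phosphorylated by Src-family kinases and then bound by Syk. Fcgr2b carries an inhibitory tyrosine motif in its own tail and recruits the phosphatase Inpp5d. Tyrobp is a second adaptor of the same kind, used by Trem2 and other receptors of myeloid cells.

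The lines matched their labels in part. All 10 macrophage markers on the list were higher in RAW than in CT26 cells cultured alone, and their summed level was 16.75 to 16.90 log2 units in RAW co-culture, 16.78 to 16.94 in RAW alone, 10.61 to 10.69 in CT26 co-culture and 10.71 to 10.79 in CT26 alone. In CT26 cells the leukocyte genes Ptprc and Itgam lay under the floor on all 4 arrays, but other markers on this list did not. Cd14 read 10.04 to 10.29 log2 units there and made up most of the summed level. Lyz2, Spi1, Laptm5, Mpeg1 and Csf1r lay above the floor at 5.3 to 7.2, and Cd68 and Adgre1 lay near it. In RAW cells the CT26 markers Krt20 and Tjp1 lay under the floor on all 4 arrays, in co-culture as alone. Krt18 lay around it, at 4.6 to 5.4 log2 units. Col1a2 (6.2 to 6.5) and Sparc (5.9 to 6.1) lay above it in RAW cells, far below their means of 13.6 and 12.7 in CT26 alone. Of general epithelial genes, Cdh1 was under the floor in CT26 cells, and Epcam did not separate the lines (6.88 log2 units on average in RAW alone and 6.87 in CT26 alone). Neither did Krt8 (5.80 in RAW alone and 5.93 in CT26 alone). Values are log2 expression values per probe set, and probes differ in how brightly they report. The summed levels are therefore weighted to the brightest probe sets. Apart from these sums, the floor and the choice of a gene's brightest probe set, levels of different probe sets are not set against each other. The floor is the 40th percentile of an array, 5.21 to 5.28 log2 units. In such bulk RNA, fewer cells with a transcript and less of it per cell cannot be told apart.

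Fcgr1, the high-affinity receptor for immunoglobulin G, was the member with a large difference in RAW cells. Its value was 11.90 log2 units in experiment 1 and 11.87 in experiment 2 in RAW co-culture, against 10.20 and 10.03 in RAW alone. The groups did not overlap, where 14.2% of all genes tested were higher without overlap in RAW co-culture. The gap was many times the spread within either group. In CT26 co-culture Fcgr1 read 4.87 and 5.13, against 5.44 and 4.70 in CT26 alone, which is at or near the floor and overlaps. The RAW means were 11.88 ± 0.025 in co-culture and 10.12 ± 0.11 alone (SD, n = 2 each), a difference of 1.77 ± 0.24 log2 units (SE), or 3.41-fold higher, with a 95% interval of 1.20 to 2.34. Within experiments it was 3.26-fold and 3.56-fold. It ranked 38 of 13196 genes by the size of the difference in either direction.

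Whether Fcgr1 passed the test depended on how experiments were treated. Without a term for the experiment its limma adjusted p was 0.0585 (unadjusted 0.000176), above the threshold of 0.05, and 0 of the 7 members were called, while 0.25% of the 13196 genes tested were. With the experiment as a block shared by both lines it rose at an adjusted p of 0.0183, in a fit that called 1.11% of genes. With line-specific blocks, fitted separately in each line, the adjusted p was 0.00722. That fit called 3.56% of all genes tested, made up of 1.55% of all genes higher in co-culture and 2.01% lower. The replicate numbers pair the samples, so both blocked fits stand beside the other. Fcgr1 was the 1 member called by either block. When any 1 of the 8 arrays was left out without a block, its difference stayed between 1.69 and 1.85 log2 units and its adjusted p between 0.0649 and 0.311.

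**Figure D1:**
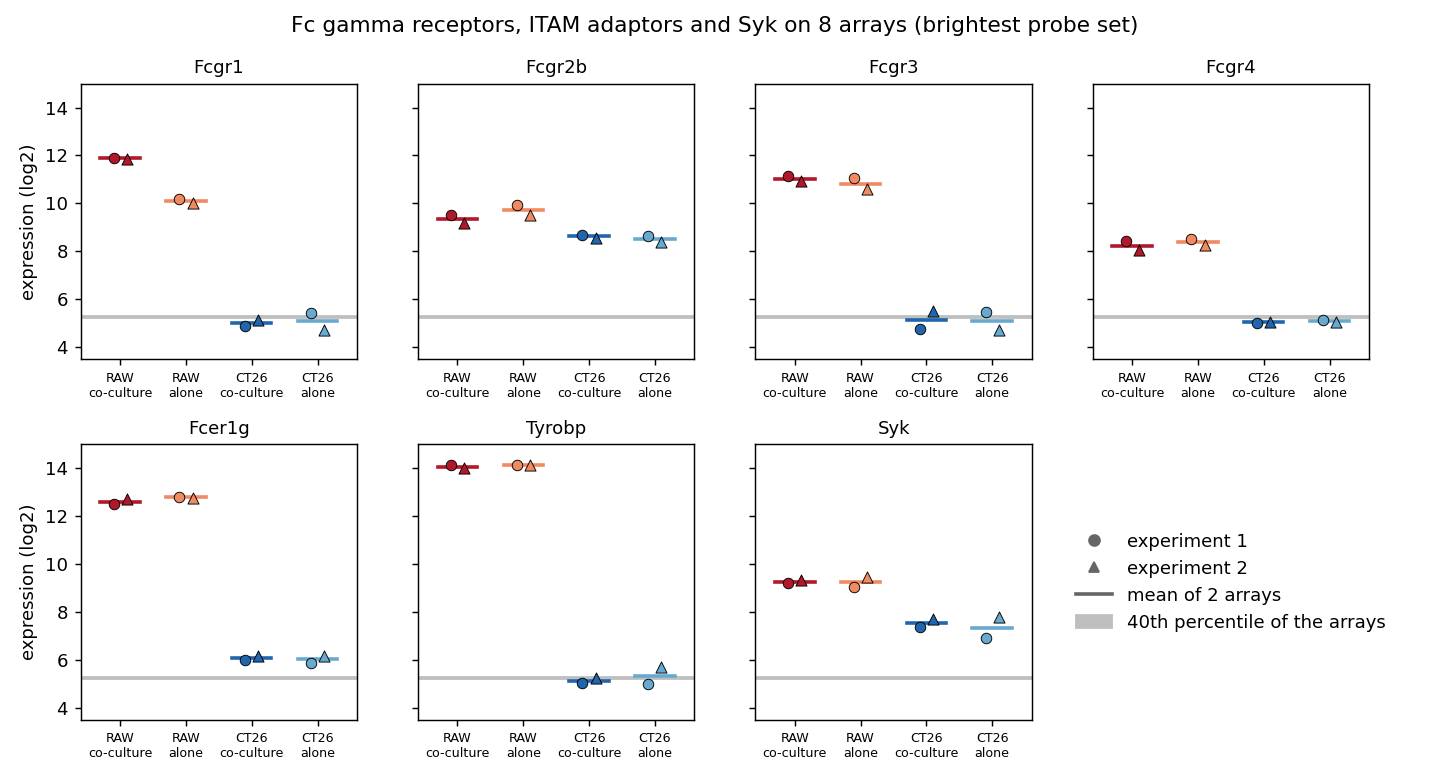
Expression of the 7 genes on each array, in log2 units, 1 panel per gene; circles are experiment 1, triangles experiment 2, bars group means and the grey line the floor for testing. Fcgr1 stands at 11.88 in RAW co-culture and 10.12 in RAW alone, while the RAW means of the other genes differ by at most 0.38 (Fcgr2b).

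The second Fcgr1 probe set moved the same way. It read 9.16 and 9.81 log2 units in RAW co-culture, against 7.70 and 8.36 in RAW alone. Experiment 2 was higher than experiment 1 in both groups, and the groups did not overlap. The difference was 1.45 ± 0.30 log2 units (SE), 2.73-fold higher. Tested over the 23972 probe sets above the floor, its adjusted p was 0.285 without a block, 0.0899 with the shared block and 0.00237 with line-specific blocks, which called 0.121%, 0.709% and 2.84% of probe sets in that order. In CT26 cells it was 6.48 and 6.49 in co-culture, against 6.68 and 6.28 alone, so unlike the first probe set it lay above the floor there.

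The promoter windows of 3 activating receptors are shown because these receptors share the Fcer1g chain but not their values in RAW cells. RefSeq windows on GRCm38.p6, from 250 bases before to 50 bases after the start, matched 6 of the 7 members, with 8 windows. They were searched on both strands for TTCNNNGAA (the GAS element, the form bound by STAT factors), GAAA, any 2 bases and GAAA (the core of the interferon-stimulated response element) and GAGGAA (the PU box, bound by the myeloid factor Spi1). Capitals mark the matches, which read 5′ to 3′ on the gene's strand, and no matches overlap.
Fcgr1, chr3:96293920-96294219, minus strand: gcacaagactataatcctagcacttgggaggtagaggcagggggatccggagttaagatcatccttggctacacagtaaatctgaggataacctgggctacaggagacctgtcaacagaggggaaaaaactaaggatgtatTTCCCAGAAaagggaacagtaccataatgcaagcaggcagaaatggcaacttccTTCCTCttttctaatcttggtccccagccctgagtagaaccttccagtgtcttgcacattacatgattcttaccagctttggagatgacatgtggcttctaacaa
Fcgr4, chr1:171018676-171018975, plus strand: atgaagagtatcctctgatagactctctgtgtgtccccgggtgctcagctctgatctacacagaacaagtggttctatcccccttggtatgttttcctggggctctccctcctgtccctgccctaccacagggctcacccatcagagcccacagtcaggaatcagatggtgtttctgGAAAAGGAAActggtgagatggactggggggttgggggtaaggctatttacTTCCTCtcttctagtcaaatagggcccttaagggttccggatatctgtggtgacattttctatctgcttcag
Fcgr3, chr1:171059354-171059653, minus strand: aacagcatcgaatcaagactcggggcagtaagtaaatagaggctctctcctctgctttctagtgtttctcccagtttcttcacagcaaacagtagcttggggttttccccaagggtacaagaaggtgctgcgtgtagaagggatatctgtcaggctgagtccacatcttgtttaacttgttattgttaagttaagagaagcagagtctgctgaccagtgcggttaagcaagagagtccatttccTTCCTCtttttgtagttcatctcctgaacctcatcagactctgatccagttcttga

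Fcgr1 had a GAS element, TTCCCAGAA, at -109 from the start and a PU box at -55. Fcgr4 had an interferon-response core, GAAAAGGAAA, at -73 and a PU box at -22, and Fcgr3 had a PU box at -6. The windows of Fcgr2b and Fcer1g held none of the 3 motifs, and 1 of the 2 Syk windows held a PU box at -9. Of all 32851 windows, 8.30% held the GAS letters, 3.44% the interferon-response core and 28.3% the PU box. A match is a description of letters and not evidence of binding in these cells. Fcgr2b, Fcgr4, Fcgr3 and Fcer1g lie in that order on chromosome 1, with 2, 7 and 29 annotated genes between neighbours, while Fcgr1 is on chromosome 3, Tyrobp on 7 and Syk on 13.

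The other activating receptors did not pass the test in RAW cells under any fit. Fcgr3, a low-affinity receptor for immune complexes, read 11.13 and 10.92 log2 units in RAW co-culture, against 11.05 and 10.58 in RAW alone. The groups overlapped, and the difference of 0.21 ± 0.33 (SE) had a 95% interval of -0.57 to 1.00 and a limma adjusted p of 1 (0.756 with line-specific blocks). Fcgr4, an intermediate-affinity receptor, read 8.43 and 8.05 in RAW co-culture, against 8.53 and 8.24 in RAW alone. These groups overlapped too, with a difference of -0.14 ± 0.17 (SE), an interval of -0.54 to 0.25 and an adjusted p of 1 (0.437 with line-specific blocks). The intervals leave room for differences of up to about the size of their bounds, and the upper bound of either lies below the lower bound of Fcgr1, 1.20.

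Fcgr2b, the inhibitory receptor, was lower in RAW co-culture in both experiments, by an amount that depended on the probe set. The probe set used for the gene, the brightest over all 8 arrays, also read 8.40 to 8.70 log2 units in CT26 cells. It read 9.53 and 9.16 in RAW co-culture, against 9.92 and 9.54 in RAW alone. The 2 groups just failed to overlap, and within experiments the differences were nearly equal at -0.39 and -0.37. The difference of -0.38 ± 0.19 (SE; interval -0.84 to 0.08) had a limma adjusted p of 1.00 without a block, 0.179 with the shared block and 0.0639 with line-specific blocks. It was -0.19 without RAW alone of experiment 1 or RAW co-culture of experiment 2, and -0.57 without either of the other RAW arrays. Of the 7 members, 1 was higher without overlap (Fcgr1) and 2 were lower (Fcgr2b and Fcer1g), while 14.2% of all genes tested were higher without overlap and 12.3% lower.

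The 4 tested Fcgr2b probe sets all gave lower means in RAW co-culture, by amounts that differed. Probe set 1435477_s_at had the largest difference, with 8.95 and 8.90 log2 units in RAW co-culture, against 10.01 and 9.58 in RAW alone. It did not overlap and averaged 0.547 times the level of RAW alone (-0.87 ± 0.22 log2 units, SE). Its adjusted p over all probe sets was 0.474 without a block, 0.187 with the shared block and 0.0333 with line-specific blocks. The other probe sets differed by -0.49 ± 0.31, -0.38 ± 0.20 and -0.37 ± 0.24 (SE), and none of them passed in any of these fits. The extracellular parts of Fcgr2b and Fcgr3 are closely similar, so probe sets that match several transcripts may report on both. The fifth Fcgr2b probe set was under the floor on all 8 arrays.

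**Figure D2:**
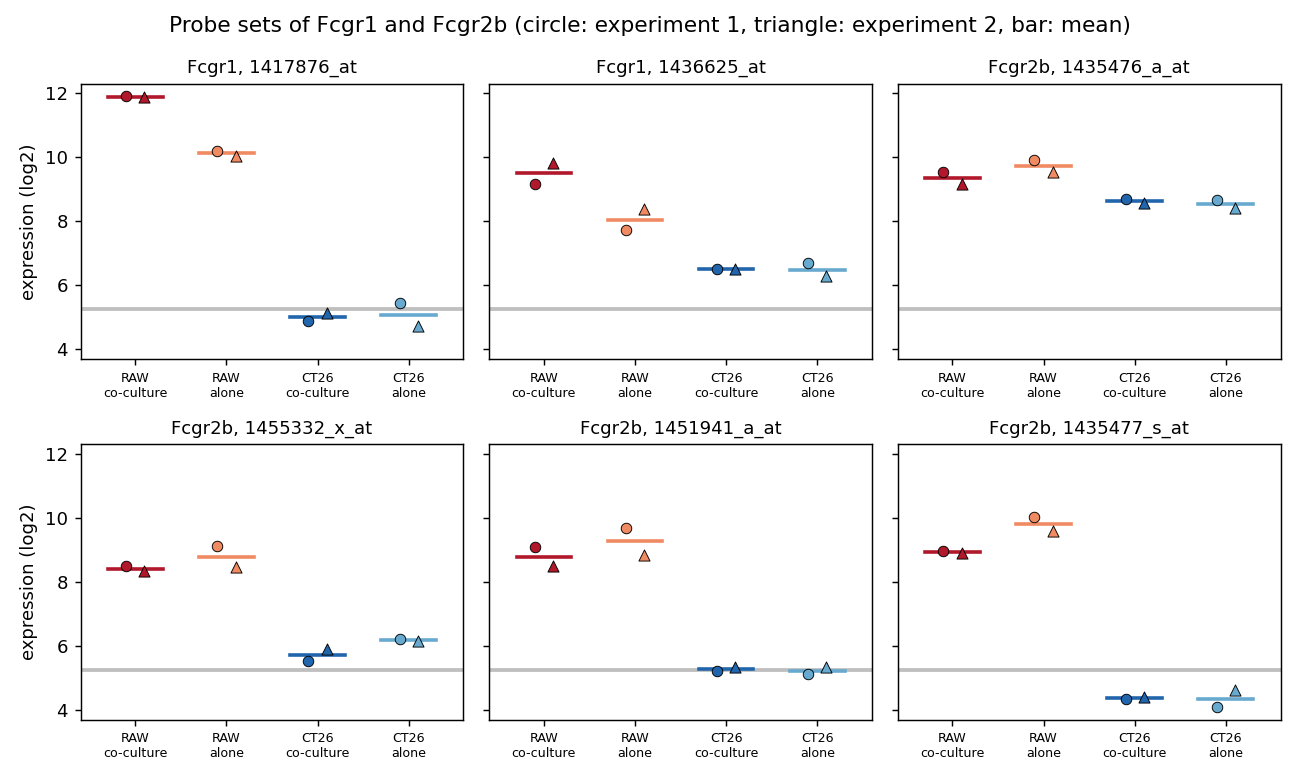
Expression in log2 units of the 2 Fcgr1 and 4 tested Fcgr2b probe sets on each array; circles are experiment 1, triangles experiment 2, bars group means and the grey line the floor. Both Fcgr1 probe sets are higher in RAW co-culture than in RAW alone, and all 4 Fcgr2b probe sets have a lower mean there, with the widest gap in 1435477_s_at.

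The adaptors Fcer1g and Tyrobp and the kinase Syk did not pass the test in RAW cells under any fit. Their intervals leave room for differences of up to about the size of their bounds. Fcer1g read 12.49 and 12.71 log2 units in RAW co-culture, against 12.79 and 12.78 in RAW alone, without overlap but with a small difference of -0.19 ± 0.15 (SE; interval -0.54 to 0.17, adjusted p 1). Tyrobp read 14.15 and 14.00 in RAW co-culture, against 14.12 and 14.16 in RAW alone, which overlap (-0.07 ± 0.24, SE; interval -0.63 to 0.49, adjusted p 1). Syk read 9.19 and 9.33 in RAW co-culture, against 9.02 and 9.46 in RAW alone, which overlap (0.02 ± 0.30, SE; interval -0.71 to 0.75, adjusted p 1). Syk was higher in co-culture in experiment 1 (0.17) and lower in experiment 2 (-0.13). Its other probe sets differed by 0.00, 0.21 and 0.13 log2 units. With a block per line the adjusted p of these 3 genes was 0.378, 0.835 and 0.963. Over the 7 members, 3 differences were above 0 and 4 below, with a median of -0.07 log2 units, against a median of 0.01 over all genes tested.

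**Figure D3:**
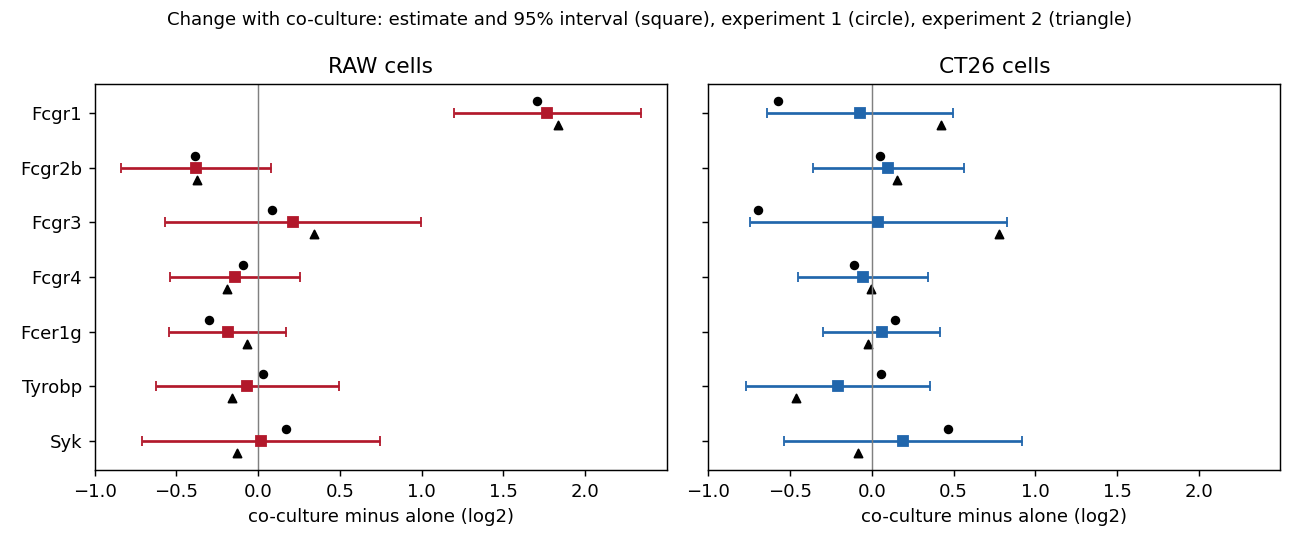
Difference between co-culture and alone for each gene in RAW cells (left) and CT26 cells (right), in log2 units; squares are estimates with their 95% intervals, circles experiment 1 and triangles experiment 2. The intervals come from the fit without a block, which ignores the pairing by experiment. Among them, that of Fcgr1 in RAW cells, 1.20 to 2.34, is the only 1 of the 14 that does not span 0. For Fcgr2b in RAW cells the SE was 0.194 in that fit and 0.084 with line-specific blocks (limma unadjusted p 0.0913 and 0.00279).

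In CT26 cells none of the 7 genes passed the test with co-culture. The differences ran from -0.21 ± 0.24 log2 units for Tyrobp to 0.19 ± 0.31 for Syk (SE, n = 2 each), each at a limma adjusted p of 1, and with line-specific blocks from 0.929 to 0.994. No gene of the whole array was called there (0% of 13196 in each of the 3 fits), 107 genes had an unadjusted p under 0.05, and 0 of the members did. Fcgr3 illustrates the spread at the floor: it read 4.76 and 5.50 in CT26 co-culture, against 5.46 and 4.72 in CT26 alone. Its difference was -0.70 in experiment 1 and 0.78 in experiment 2. Fcgr4 was lower without overlap (5.02 and 5.03 in CT26 co-culture, against 5.13 and 5.03 in CT26 alone), under the floor throughout. It was the 1 member lower without overlap, as were 11.3% of genes, and 0 members were higher, against 9.69% of genes.

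The RAW effect was set against the CT26 effect for each gene. For Fcgr1 it was larger by 1.84 ± 0.34 log2 units (SE; 95% interval 1.03 to 2.65), by 2.28 in experiment 1 and 1.41 in experiment 2. In that order the RAW differences were 1.71 and 1.83, and the CT26 differences -0.57 and 0.43. The CT26 values of this probe set were at or near the floor, so the CT26 side rests on values near background. The limma adjusted p was 0.504 without a block, 0.166 with the shared block and 0.0553 with line-specific blocks. So 0 of 7 members were called, beside 0.00758% of genes without a block, 0.0834% with the shared block and 0.743% with line-specific blocks, and 1 member had an unadjusted p under 0.05, as did 328 of the 13196 genes. Only the second Fcgr1 probe set passed: it differed by 1.44 ± 0.42 (SE), with an adjusted p of 0.0272 over all probe sets with line-specific blocks, a fit that called 0.505% of them. For Fcgr2b the RAW effect was lower by 0.48 on the log2 scale (-0.48 ± 0.27, SE; adjusted p 1, and 0.173 with line-specific blocks). Its other probe sets gave 0.10, -0.53 and -0.90, and none passed.

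All 7 genes were higher in RAW than in CT26 cells cultured alone, in a comparison that called 34.6% of genes, with 17% of all genes called higher in RAW. They were called in the blocked fits too, which called 52.9% (shared) and 58.6% (line-specific). All 7 were higher without overlap, as were 30.2% of genes, and 0 were lower, against 37.1% of genes. Tyrobp had the widest gap, at 14.12 and 14.16 log2 units in RAW alone, against 4.98 and 5.71 in CT26 alone (8.79 ± 0.24, SE; limma adjusted p 5.80e-07). Fcer1g followed with 12.79 and 12.78 in RAW alone, against 5.87 and 6.18 in CT26 alone (6.76 ± 0.15, SE; adjusted p 3.31e-07). The receptors Fcgr3 (5.73 ± 0.33), Fcgr1 (5.04 ± 0.24) and Fcgr4 (3.30 ± 0.17) came next (SE). Adjusted p was 1.66e-05, 6.96e-06 and 9.14e-06 in that order. In CT26 alone Fcgr1, Fcgr3, Fcgr4 and Tyrobp were at or around the floor, so these gaps rest on values near background. Those genes passed the filter for testing only through the RAW groups. The direction of their gaps and their place in the counts above were therefore largely set by the filter. The adjusted p values of these 4 genes are given as a description and not as support for the direction. The counts describe the genes without testing them as a set.

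On the brightest probe sets, Syk and Fcgr2b differed least between the lines, an order that the other probe sets do not keep. Syk, which epithelial cells also transcribe, read 9.02 and 9.46 log2 units in RAW alone, against 6.90 and 7.80 in CT26 alone, 3.70-fold higher (1.89 ± 0.30, SE; adjusted p 0.003). Its other probe sets differed by 1.64, 1.89 and 0.55. The brightest Fcgr2b probe set read 9.92 and 9.54 in RAW alone, against 8.65 and 8.40 in CT26 alone, 2.30-fold higher (1.20 ± 0.19, SE; adjusted p 0.00293). The other 3 Fcgr2b probe sets gave gaps of 2.60, 4.05 and 5.45 log2 units, or 6.08-fold, 16.6-fold and 43.8-fold. Those of 1451941_a_at and 1435477_s_at lay near or under the floor in CT26 cells, so the CT26 level relative to the floor differed by probe set. Fcgr1 showed the same split, with gaps of 5.04 on its first and 1.56 on its second probe set.

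**Figure D4:**
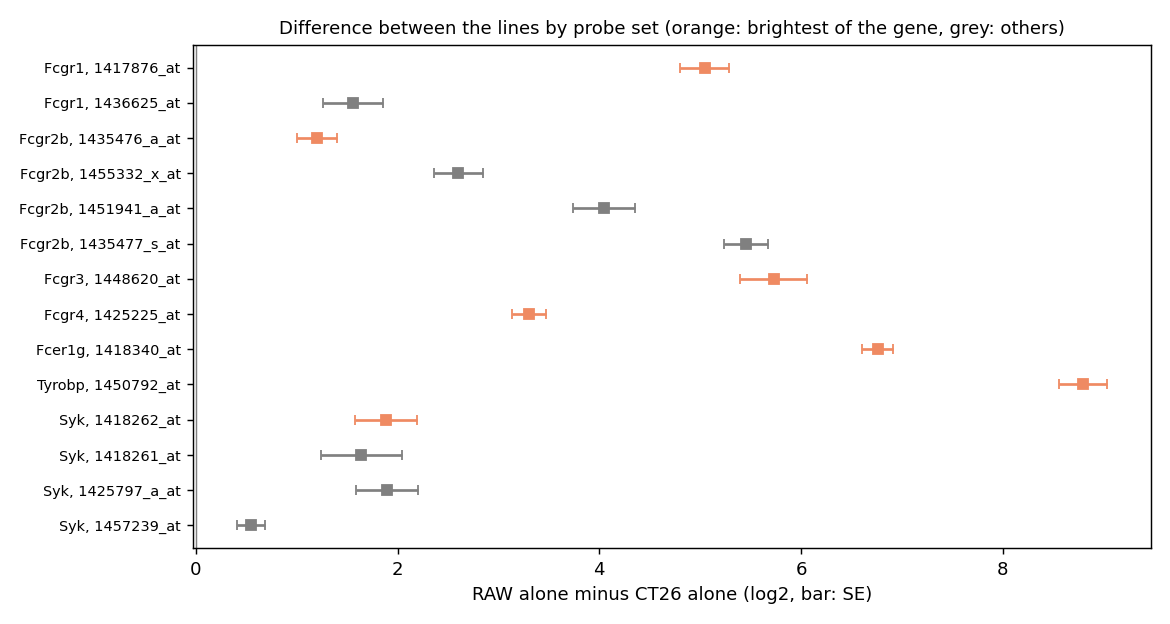
Difference between RAW alone and CT26 alone for the 14 tested probe sets, in log2 units; squares are estimates, bars their SE, orange the brightest probe set of a gene and grey the others. The Fcgr2b probe sets run from 1.20 to 5.45 and the Fcgr1 probe sets from 1.56 to 5.04.

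The genes most like each member were those with the smallest root mean square difference over the 8 arrays, after centring each gene. For Fcgr1 they were Cfp (0.305 log2 units), Cd74 (0.504) and Pmaip1 (0.532). Cfp, which encodes properdin of the complement system, had a Pearson r of 0.995 with Fcgr1 over the 8 arrays and differed by 1.27 log2 units between RAW co-culture and RAW alone. Fcgr3 was nearest to Icam1 (0.265), Pmaip1 (0.285) and Ripk3 (0.309), and Fcgr4 to Fuca2 (0.0868), Nlrp10 (0.100) and Ifi213 (0.104). Fcgr2b was nearest to Acyp1 (0.101), Atp6ap2 (0.104) and Clybl (0.111), and Syk to Arhgef39 (0.167), Fam174a (0.179) and Fam78a (0.189). Fcer1g was nearest to Pik3ap1 (0.192), Ncf4 (0.194) and Cd53 (0.197), and Tyrobp to Lyz2 (0.226), Coro1a (0.238) and Lpl (0.260). These 8 points share 2 lines and 2 experiments, and the genes were picked for likeness on the same arrays. A high r or a similar difference with co-culture therefore follows in part from the choice. Fcgr1 also had an r of 0.982 with Fcgr3 and 0.972 with Tyrobp, which did not pass the test with co-culture in RAW cells.

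Around the members, 5 lists of genes from the same pathway held 125 genes, of which 109 had a probe set of their own and 98 were tested; the rest were not analysed here. Without a block limma called 0 of the 98 in RAW cells and 0 in CT26 cells, while 15 and 3 had an unadjusted p under 0.05, as did 694 and 107 of the 13196 genes. With a block per line 13 of 98 passed in RAW cells, 4 higher and 9 lower, where 1.55% of all genes were called higher and 2.01% lower. With the shared block 3 of 98 passed, where 1.11% of all genes were called. The lists were chosen with earlier results of these data known, so these counts describe the genes without testing them as a set. Adjusted p values of list genes are given below without a block, with the shared block and with line-specific blocks, in that order. The list medians in RAW cells lay between -0.15 and -0.02 log2 units, against 0.01 over all genes.

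Among other Fc receptors, 1 of 5 tested rose and 1 fell with line-specific blocks. Trim21, the receptor for antibody inside cells, read 8.30 and 8.57 log2 units in RAW co-culture, against 7.74 and 7.80 in RAW alone (0.67 ± 0.13, SE; adjusted p 0.206, 0.0537 and 0.0122). Fcgrt, the neonatal Fc receptor that recycles immunoglobulin G, read 7.23 and 7.31 in RAW co-culture, against 7.81 and 7.80 in RAW alone (-0.53 ± 0.12, SE; 0.31, 0.0578 and 0.0212). Neither pair of groups overlapped, where 14.2% of all genes tested were higher without overlap and 12.3% lower. Fcrls differed by -0.20 ± 0.14 (SE) and did not pass.

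Of 16 tested receptors that use Fcer1g or Tyrobp, 1 rose and 2 fell with line-specific blocks. Siglec1, a sialic acid receptor of macrophages, read 7.65 and 8.26 log2 units in RAW co-culture, against 7.01 and 7.34 in RAW alone (0.78 ± 0.22, SE; adjusted p 0.528, 0.148 and 0.00955). Its groups did not overlap, where 14.2% of all genes tested were higher without overlap. The mean of its 3 probe sets gave 0.46, and without RAW co-culture of experiment 2 the difference was 0.48. Cd300c2 read 9.44 and 9.42 in RAW co-culture, against 10.18 and 10.11 in RAW alone (-0.71 ± 0.18, SE; 0.414, 0.112 and 0.0221). Cd300ld, of the same family, differed by -0.70 ± 0.17 (SE) without passing (0.376, 0.125 and 0.0642). The third call was Cd300lb (-0.59 ± 0.47, SE; 1, 0.37 and 0.0138), named after its values were seen.

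Of 18 tested proximal kinases and adaptors, 0 passed in RAW cells in any of the 3 fits, and 0 reached an unadjusted p under 0.05 in the unblocked fit. The largest differences were those of Src (-0.29 ± 0.49), the scaffold Lcp2 (0.23 ± 0.15) and the exchange factor Sos1 (-0.22 ± 0.22, SE). As means of all their probe sets these were -0.09, 0.09 and 0.04.

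Of 33 tested effectors of uptake and calcium signalling, 4 fell and 0 rose with line-specific blocks. Nfatc1, a calcium-dependent transcription factor, read 9.23 and 9.76 log2 units in RAW co-culture, against 10.77 and 10.72 in RAW alone (-1.25 ± 0.23, SE; adjusted p 0.166, 0.0226 and 0.00921). Gsn, the actin-severing gelsolin, read 11.96 and 12.10 in RAW co-culture, against 12.93 and 12.90 in RAW alone (-0.88 ± 0.12, SE; 0.0566, 0.0117 and 0.00371). Both genes were lower without overlap, as were 12.3% of all genes tested. Myo10, an unconventional myosin, read 9.62 and 10.11 in RAW co-culture, against 10.30 and 11.32 in RAW alone (-0.95 ± 0.34, SE; 0.8, 0.16 and 0.027). Leaving out 1 array moved the difference of Myo10 to between -1.46 (RAW alone, experiment 1) and -0.44 (RAW alone, experiment 2). The fourth, the lipid kinase subunit Pik3cb (-0.43 ± 0.12, SE; 0.541, 0.141 and 0.0494), was named after its values were seen.

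Of 26 tested brakes, 2 rose and 2 fell with line-specific blocks. The inhibitory receptor Cd300lf read 8.31 and 8.93 log2 units in RAW co-culture, against 7.41 and 7.68 in RAW alone (1.07 ± 0.22, SE; adjusted p 0.241, 0.0708 and 0.00339). The inhibitory receptor Cd300a read 10.68 and 10.55 in RAW co-culture, against 11.71 and 11.65 in RAW alone (-1.07 ± 0.14, SE; 0.0566, 0.0167 and 0.00202). So members of the Cd300 family were found on both sides. The groups of Cd300lf and of Cd300a did not overlap, where 14.2% of all genes tested were higher without overlap and 12.3% lower. Clec4a2 differed by -0.55 ± 0.32 (SE; -0.048 without RAW alone of experiment 1) and did not pass. The other calls were Cd72 (-0.55 ± 0.14, SE; 0.427, 0.0863 and 0.0256) and the adaptor Dok2 (0.49 ± 0.24, SE; 1, 0.235 and 0.0413), both named after their values were seen. The RAW effect was lower than the CT26 effect for Gsn (-0.91 ± 0.17, SE) and Cd300a (-1.01 ± 0.20, SE), which passed with line-specific blocks alone, a fit that called 0.356% of genes lower. The adjusted p was 0.504, 0.0998 and 0.0319 for Gsn and 0.596, 0.197 and 0.0251 for Cd300a, and no other gene of the 5 lists passed in that comparison.

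**Figure D5:**
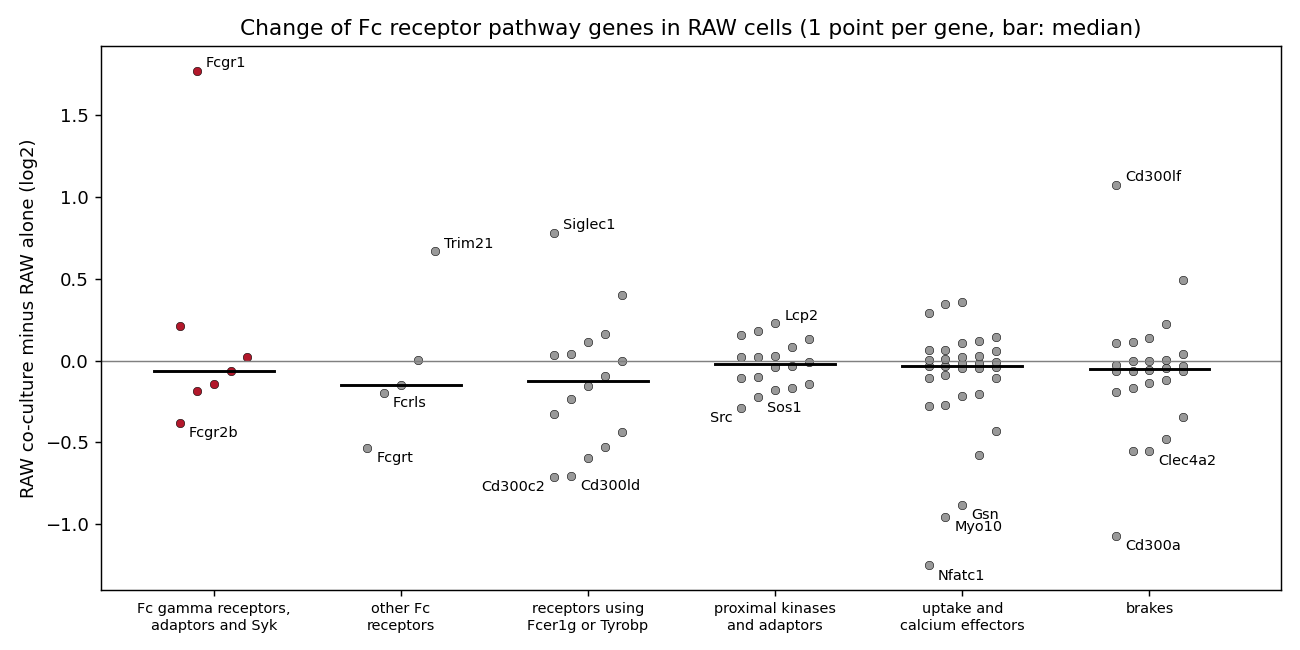
Difference between RAW co-culture and RAW alone in log2 units for the 7 members (red) and the tested genes of 5 pathway lists (grey), 1 point per gene with bars at list medians. Fcgr1 at 1.77 lies above every other point, the medians lie near 0, and Nfatc1 is lowest at -1.25.

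Markers of other cell types were read beside these differences in RAW cells. The summed level of mast cell and granulocyte markers was 8.54 to 8.64 log2 units in RAW co-culture, against 9.08 to 9.31 in RAW alone. Of its 6 measured markers 2 were tested, S100a8 at -0.99 ± 0.18 (SE; limma adjusted p 0.147, 0.0537 and 0.0246) and Tpsb2 at 0.14, while Kit, Cpa3, Elane and Mpo were too dim to be tested. The 10 macrophage markers had a median difference of -0.06 log2 units, from -0.75 ± 0.30 (SE; 0.916, 0.0879 and 0.0306) for Adgre1 to 0.11 for Cd14. Summed dendritic cell markers were at 7.64 to 7.72 in RAW co-culture, against 7.59 to 7.61 in RAW alone. Their part in the results was not tested.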

How the data were processed

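The authors deposited log2 expression values made by RMA (affy), per the submitters' processing notes. The versions, the settings and the genome build were not given in the sources used here. Array medians of 5.89 to 5.95 and sorted columns within 0.158 log2 units are what a quantile normalization leaves, which removes a change in total RNA per cell, and RMA compresses low signals; no 2 columns were identical. Of 45101 probe sets, 64 controls were left out; 34945 had 1 gene symbol, 932 several and 9160 none in the platform annotation. A gene was read from its brightest probe set with 1 symbol over the 8 arrays, and tested if above the 40th percentile in both arrays of at least 1 group. The 4 group means were fitted over all arrays (limma 3.58.1, R 4.3.3, 4 residual degrees of freedom) and p-values were adjusted by Benjamini-Hochberg over 13196 genes, two-sided, at 0.05. The experiment was also fitted as a block, shared (3 residual degrees of freedom) or per line (2). Other normalizations, filters, probe set rules and a variance trend, the RAW or CT26 arrays alone and each array left out were alternatives. Deviations from group means correlated at 0.765 in RAW, 0.754 in CT26 and 0.484 to 0.561 between lines, so the numbers, which come from the labels, pair the samples. The named genes were all members, list genes called without a block, and the 3 per list with the largest RAW difference. The fit was tested on simulated data. The members and lists were chosen with earlier results of these data known. Figures used Python 3.11.15 with matplotlib 3.10.9. The number of arrays limits the precision.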

Additional observations from a re-analysis of the deposited data

How the results depend on the processing

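With 2 arrays a group, the median SE of a difference was 0.165 log2 units without a block and 0.0938 with line-specific blocks, and the probe sets of 1 gene differ. The tests without a block called 33 genes in RAW cells, 0 in CT26 cells, 1 for the difference of effects and 4563 between the lines. The shared block gave 146, 0, 11 and 6978, and line-specific blocks 470, 0, 98 and 7735. With each probe set tested and a block, both chosen after seeing the data, RAW counts were 131 (shared) and 521 (per line), the difference of effects gave 2 and 101, and the lines 7581 and 8454. RAW arrays alone gave 4 genes; each probe set without a block gave 2 and a variance trend 4 for the difference of effects. Members called in RAW cells were 1 with either block, 1 with each array centred on its median (Fcgr1, adjusted p 0.0473), and 1 and 2 with probe sets and the shared or per-line block; the difference of effects gave 1 member with probe sets and line-specific blocks. Fcgr1 in RAW cells was higher in all 18 alternative settings, at 1.61 to 1.78 log2 units in the 10 that kept all arrays (adjusted p 0.00722 to 0.0812). On the brightest probe sets, the pairing changed no other member's call; the second call among probe sets is Fcgr2b (1435477_s_at). As the mean of all probe sets, Sos1 in RAW cells turned to 0.037 and Fcgr2b in CT26 cells to -0.080; the cause was not tested. Of the pathway lists, 1 effector and 1 brake were called in RAW cells without the filter on dim probe sets, and 1 effector with a variance trend.

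With 1 array left out, the RAW difference of Fcgr2b ranged from -0.572 to -0.189, Siglec1 from 0.476 to 1.084, Src from -0.524 to -0.050, Lcp2 from 0.081 to 0.374 and Clec4a2 from -1.055 to -0.048. RAW genes called ranged from 2 to 30 (30 without either CT26 co-culture array, at most 7 without any other) and those for the difference of effects from 0 to 2. Differences that changed sign then ranged in RAW cells from -0.198 to 0.236 (Syk), -0.018 to 0.444 (Fcgr3), -0.335 to 0.049 (Fcgr4) and -0.142 to 0.0090 (Tyrobp). In CT26 cells they ranged from -0.443 to 0.298 (Fcgr1), -0.022 to 0.225 (Fcgr2b), -0.328 to 0.410 (Fcgr3), -0.097 to 0.216 (Fcer1g), -0.574 to 0.163 (Tyrobp) and -0.257 to 0.639 (Syk). For the difference of effects they ranged from -0.197 to 0.540 (Fcgr3), -0.279 to 0.105 (Fcgr4), -0.229 to 0.508 (Tyrobp) and -0.620 to 0.276 (Syk). Groups left with 1 array were assumed to vary like the others.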

Other observations

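Fcrl1, an Fc receptor-like gene known from B cells, was bright in RAW cells: it read 10.72 to 11.07 log2 units in RAW co-culture, 10.995 to 11.101 in RAW alone, 5.03 to 5.29 in CT26 co-culture, and 4.64 to 5.26 in CT26 alone. It was 6.09 ± 0.23 log2 units (SE) higher in RAW than in CT26 cells cultured alone by limma, with CT26 values at or around the floor, and it differed by -0.15 ± 0.23 (SE; adjusted p 1) between RAW co-culture and RAW alone. It was named after its values were seen.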
